A study of Homo sapiens with 9 samples.

Results

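The expression of the genes for MHC class I antigen presentation was examined by RNA sequencing in cells labelled MDA-MB-453, an established human breast cancer cell line, after knockdown of the long noncoding RNA LINC00673. The genes were taken by their symbols: HLA-B, HLA-C, HLA-E and HLA-F for the heavy chains, B2M for the light chain, TAP1 and TAP2 for the peptide transporter, TAPBP for tapasin and NLRC5 for the regulator. All 9 had 1 line each among the 19930 genes of the table. The 9 libraries form 3 groups of 3: a control transfection and a pair of knockdown groups, here called knockdown 1 and knockdown 2 after the numbers in their titles. All cells were transfected with Lipofectamine 2000, and the protocol gives 48 h from transfection to harvest. The control carries neither knockdown, no label ties the group numbers to particular siRNAs, and the labels do not say whether the libraries of a group came from separate cultures (the study speaks of independent experiments in general, without tying this to the sequenced libraries), so the P values measure only the spread between these libraries, which may be technical. Within a group the libraries are named by their labels, as the one without a suffix, r1 and r2, and values are given in that order.

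MHC class I molecules show peptides from inside the cell to cytotoxic T cells and natural killer cells. The proteasome cuts proteins into peptides, the TAP1 and TAP2 heterodimer pumps them into the endoplasmic reticulum, and tapasin holds the empty heavy chain and beta-2-microglobulin at the transporter until a peptide is bound. Class I promoters are driven by interferon-response and kappa B elements and by a module to which RFX proteins, CREB or ATF factors and NF-Y bind, and NLRC5 acts at that module as the class I transactivator. Tumor cells often lower parts of this pathway.

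The table places most of these genes in the MHC on chromosome 6, with coordinates that match the GRCh37.p13 build named in the submitters' processing notes. HLA-F lies at chr6:29691117-29695073 and HLA-E at chr6:30457183-30461982 on the forward strand, and HLA-B at chr6:31321643-31325022, TAP2 at chr6:32789610-32806600, TAP1 at chr6:32812986-32821748 and TAPBP at chr6:33267471-33285719 on the reverse strand. B2M lies outside the MHC at chr15:45003685-45010357 and NLRC5 at chr16:57023397-57117436, both on the forward strand. The line for HLA-C joins a start on an alternative haplotype sequence with an end on chromosome 6, so no range is given for it. Each value covers the whole gene, and the number of listed transcripts was 1 for HLA-B, HLA-E and B2M and up to 6 for TAPBP.

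The values are FPKM, fragments counted relative to transcript length and to the mapped fragments of the library, so they are comparable per length between genes. From the steps between low values, the depth was estimated at 25.5 to 27.9 M fragments in the control libraries, 24.7 to 25.6 M in knockdown 1 and 23.4 to 24.9 M in knockdown 2. Epithelial keratins were abundant, with KRT8 at 3011 to 3773 FPKM, and ERBB2 was at 11.8 to 17.8 FPKM. In contrast, FOXA1, a transcription factor of luminal breast cells, was at 0 to 0.04 FPKM and GATA3 at 0.41 to 0.88 FPKM in the 9 libraries. FOXA1 is a defining gene of the MDA-MB-453 line and was absent or nearly so here, and the cells are called by their label only. Of 6 leukocyte markers with values, LYZ alone was over 0.39 FPKM in any library and PTPRC reached 0.07 FPKM, and the list summed to 7.14 to 7.99 FPKM in control, 8.84 to 9.2 FPKM in knockdown 1 and 8.43 to 8.75 FPKM in knockdown 2. The 7 fibroblast markers summed to 9.91 to 10.4, 12.9 to 13.4 and 11.5 to 12.9 FPKM in the same order, nearly all of it COL1A1 and LUM, with COL1A2 at up to 0.12 FPKM. The 5 endothelial markers summed to 0.55 to 0.6, 0.9 to 1.01 and 0.89 to 0.95 FPKM. These sums were higher in the knockdown groups, and their part in the results was not tested.

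The tests were made with limma on log2(FPKM + 1) over the 12884 genes whose 9 libraries averaged 1 FPKM or more. A gene was called higher or lower at a fold change of at least 1.3, which is 0.379 on the log2 scale, and an unadjusted P of at most 0.05, the criteria used by the study. Adjusted P values are Benjamini-Hochberg values over all tested genes. All log2 fold changes are differences of log2(FPKM + 1), which understate the change of genes with low values. Both knockdown groups were compared with the same 3 control libraries, so the comparisons are not independent of each other. In bulk RNA, a lower level per cell and a lower share of the cells with the RNA cannot be told apart.

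In control, B2M was the most abundant of the 9 genes by their own lines at 323 ± 10.8 FPKM, followed by HLA-C at 258 ± 15.6 FPKM (SD, n = 3). HLA-E, at 61.8 ± 0.972 FPKM, and HLA-B, at 51.9 ± 0.256 FPKM, came next. The levels were then lower, with TAP1 at 12.7 ± 0.157 FPKM, TAP2 at 9 ± 0.392 FPKM, HLA-F at 5.27 ± 0.894 FPKM, TAPBP at 3.75 ± 0.577 FPKM and NLRC5 at 0.557 ± 0.0416 FPKM. Neighbours in this order did not overlap between libraries, except HLA-F and TAPBP. The control levels of the 9 genes thus spanned from below 1 FPKM for the regulator to 323 FPKM for the light chain. The order leaves out the predicted genes annotated as MHC class I that are described below. These summed to 815 FPKM in control, beside 377 FPKM for the 4 heavy chains, so the place of the heavy chains in it is uncertain.

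**Figure D1:**
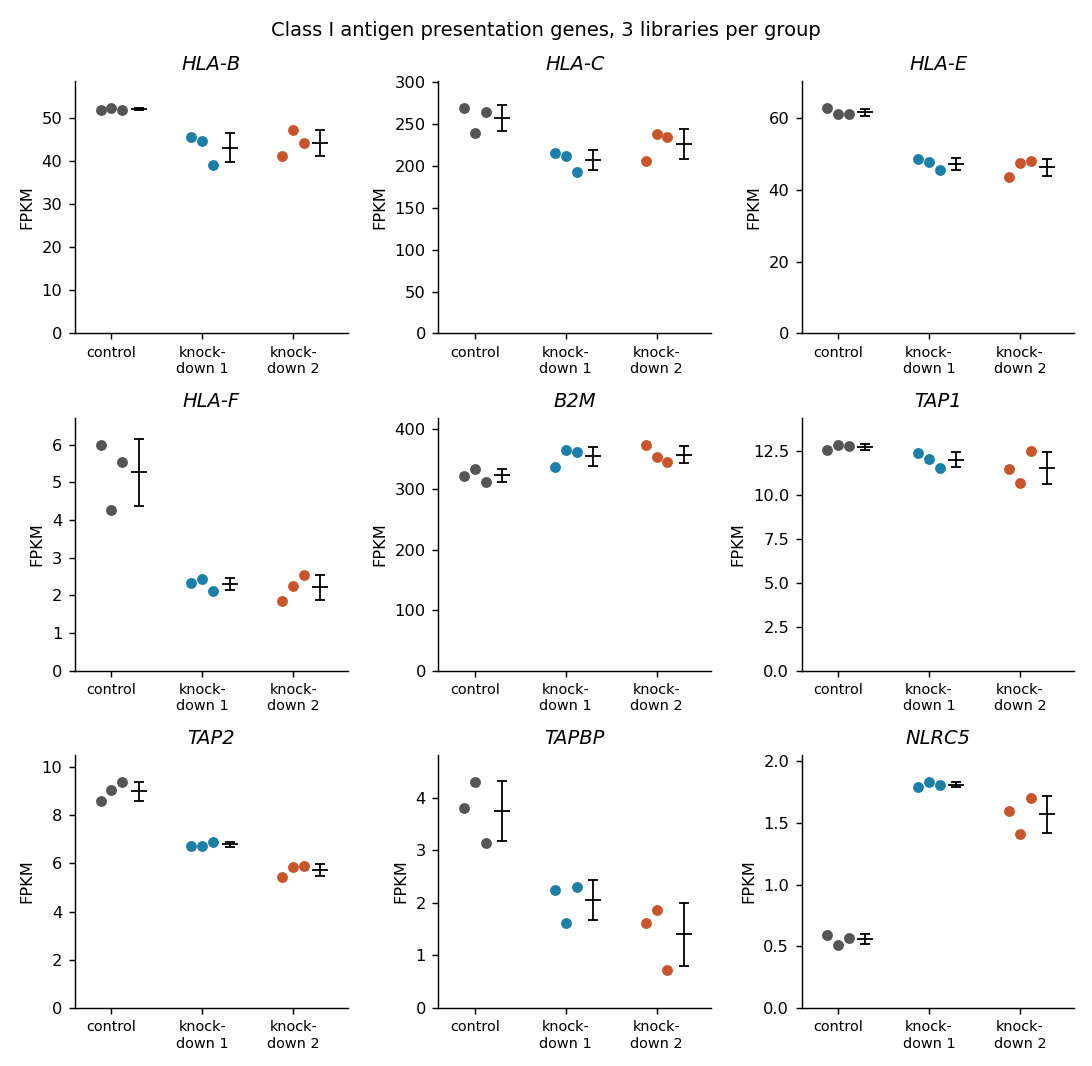
FPKM of the 9 genes by group. Each point is 1 library, in the order no suffix, r1 and r2, and the bar beside the points is the mean ± SD (n = 3); each vertical axis starts at 0. Control libraries lie above the knockdown libraries for 7 genes and below them for B2M and NLRC5 in the FPKM as deposited (after a GC correction, HLA-C in knockdown 2 and TAP1 in both knockdown groups turn to the other side), with a gap that is narrow for TAP1 (10.7 to 12.9 FPKM in all) and wide for HLA-F, TAP2, TAPBP and NLRC5. Such a lack of overlap with control was common, at 70.0% of all tested genes in knockdown 1 and 73.0% in knockdown 2.

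In both knockdown groups HLA-F, HLA-E and TAPBP were called lower than in control and NLRC5, which passed the expression filter only through these groups, was called higher, and TAP2 was called lower in knockdown 2. The remaining genes, HLA-B, HLA-C, B2M and TAP1, did not reach the fold limit. Once the libraries were corrected for the GC content of the transcripts, HLA-C in knockdown 2 turned to the higher side (0.16), TAP1 turned to 0.01 and 0.03, HLA-E was no longer called (-0.33 and -0.29) and TAP2 was called lower in knockdown 1 as well (-0.4).

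Among the 4 named heavy chains, the nonclassical HLA-F had the largest fold change. Some predicted genes annotated as MHC class I, described below, had larger ones in either direction. Examples are BGI_novel_G002492 (log2 fold changes -1.34 and -1.25) and BGI_novel_G002457 (3.44 and 4.11). HLA-F, a nonclassical heavy chain that natural killer cell receptors bind, had 5.99, 4.27 and 5.55 FPKM in control, 2.33, 2.44 and 2.12 FPKM in knockdown 1 and 1.86, 2.24 and 2.53 FPKM in knockdown 2. The lowest control library was above the highest knockdown library. The log2 fold change was -0.92 ± 0.11 (SE) in knockdown 1 (limma, adjusted P = 4.91e-05) and -0.96 ± 0.11 in knockdown 2 (adjusted P = 2.74e-05), and the mean in control was 2.3 and 2.38 times that in the knockdown groups. HLA-F was among the less deeply covered genes, with about 68 to 246 fragments per library. The genes whose pattern over the 9 libraries was most like that of HLA-F, by the root mean square distance of log2(FPKM + 1) centred on the control mean, were ESPN (0.0592), TMEM132A (0.0637), ALDH16A1 (0.0661), HR (0.0697) and AIFM3 (0.0702).

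HLA-E, the nonclassical chain that presents leader peptides of other class I chains to natural killer cell receptors, had 62.9, 61.3 and 61.1 FPKM in control, 48.6, 47.7 and 45.5 FPKM in knockdown 1 and 43.5, 47.5 and 48 FPKM in knockdown 2. The control libraries stood together above all 6 knockdown libraries. Its log2 fold change of -0.38 ± 0.042 in knockdown 1 (adjusted P = 2.9e-05) lay at the fold limit and that of -0.41 ± 0.042 in knockdown 2 (adjusted P = 1.29e-05) just past it. The call in knockdown 1 was lost without the control library without a suffix (-0.37) or without knockdown 1 r2 (-0.35), and the call in knockdown 2 without the knockdown 2 library without a suffix (-0.36) or after median ratio scaling (-0.3).

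HLA-B, a classical heavy chain that presents peptides to cytotoxic T cells, had 51.8, 52.2 and 51.8 FPKM in control, 45.4, 44.6 and 39.1 FPKM in knockdown 1 and 41.1, 47.1 and 44.2 FPKM in knockdown 2. Its log2 fold changes were -0.27 ± 0.061 (adjusted P = 0.00326) and -0.23 ± 0.061 (adjusted P = 0.00636), neither of which reached the fold limit. HLA-C, the classical chain that also serves as the main ligand of killer cell immunoglobulin-like receptors, had 269, 240 and 264 FPKM in control, 216, 212 and 193 FPKM in knockdown 1 and 206, 238 and 235 FPKM in knockdown 2. The lowest control library of HLA-C was only slightly above the highest library of knockdown 2. Its log2 fold changes were -0.32 ± 0.066 (adjusted P = 0.00193) and -0.19 ± 0.066 (adjusted P = 0.0258), also short of the fold limit, and the latter turned to 0.16 after the GC correction. Class I heavy chains share long stretches of sequence, so fragments may be split among them in a way that the sources used here do not describe, and the level of a single heavy chain is uncertain to that extent.

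With FPKM as deposited, the summed FPKM of the 4 heavy chains was 390, 358 and 382 in control, 312, 307 and 280 in knockdown 1 and 292, 335 and 330 in knockdown 2. The sums were not made under the other scalings. All knockdown libraries were below all control libraries, and the group means in the knockdown groups were 0.795 and 0.847 of the control mean, of which HLA-C, the chain that turned after the GC correction, made up the larger part. The table also held 32 predicted genes with no symbol whose annotation was the KEGG entry for MHC class I, and all 32 were placed on the alternative haplotype sequences of chromosome 6. They carried 68.4% of the class I FPKM in control, and 1 of them, BGI_novel_G002547, held 57.8% of the predicted sum. With the predicted genes added, the ratios to control were 0.804 and 0.852, while the predicted genes without BGI_novel_G002547 summed to 0.639 and 0.728 of control. Of the 32 genes, 22 were tested, and 5 were called higher and 13 lower in knockdown 1, against 7 higher and 8 lower in knockdown 2, where all tested genes gave 11.1% and 15.6% in knockdown 1 and 11.0% and 23.1% in knockdown 2. Those higher included BGI_novel_G002450 (0.42 FPKM in control) and BGI_novel_G002457, which passed the expression filter only through the knockdown groups, so the counts are a description. The highest one, BGI_novel_G002547, was not called, with 471 ± 14.2 FPKM in control and log2 fold changes of -0.1 and -0.08. In contrast, BGI_novel_G002457 was listed at 0 in all 3 control libraries and had 8.05 to 11.1 FPKM in knockdown 1 and 13 to 19.4 FPKM in knockdown 2.

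**Figure D2:**
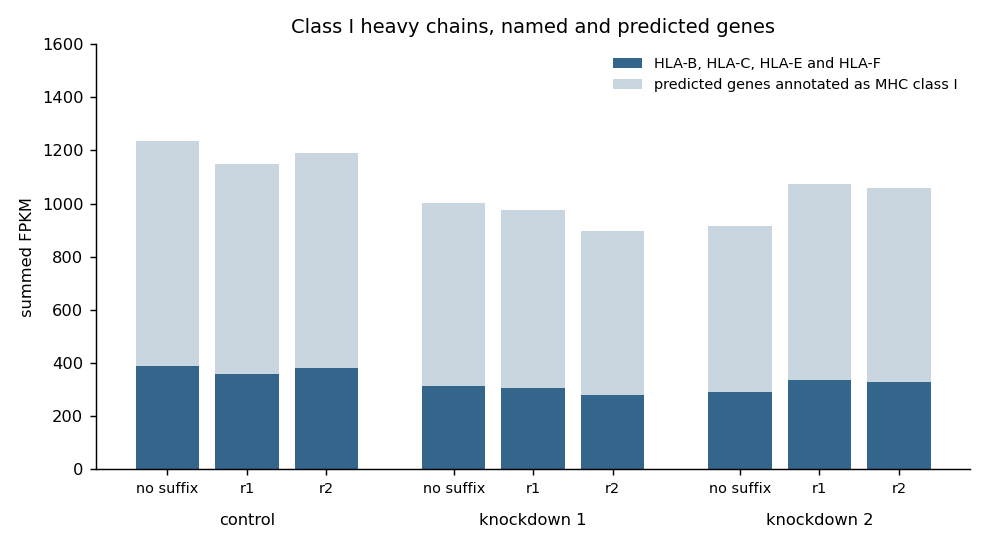
Summed FPKM of class I heavy chains in each library, with FPKM as deposited. No sums were made after median ratio scaling or the GC correction. The dark part of each bar is the sum of HLA-B, HLA-C, HLA-E and HLA-F, and the pale part is the sum of the 32 predicted genes annotated as MHC class I; the predicted genes make up the larger part in each library, and the whole bars are lower in the 6 knockdown libraries (896 to 1074 FPKM) than in the 3 control libraries (1148 to 1236 FPKM).

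B2M, the light chain shared by all class I molecules, differed in the other direction. It had 322, 334 and 312 FPKM in control, 337, 365 and 361 FPKM in knockdown 1 and 373, 353 and 345 FPKM in knockdown 2. The lowest knockdown library was above the highest control library by a few FPKM. The log2 fold changes were 0.13 ± 0.041 (adjusted P = 0.0169) and 0.14 ± 0.041 (adjusted P = 0.00996), which is a fold of 1.1 and 1.11 and not a call. Per 100 FPKM of B2M, HLA-C was at 80 ± 7.05, 58.6 ± 5.32 and 63.5 ± 7.2 FPKM in control, knockdown 1 and knockdown 2 (SD, n = 3), and HLA-E at 19.2 ± 0.685, 13.4 ± 0.946 and 13 ± 1.18 FPKM. These ratios were not tested. After the GC correction the log2 fold changes of HLA-C were close to those of B2M, at -0.01 beside 0.06 in knockdown 1 and 0.16 beside 0.2 in knockdown 2, so the ratio of HLA-C to B2M then nearly equalled that in control. HLA-E was then at -0.33 and -0.29, so its ratio to B2M stayed below that in control.

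Of the peptide transporter, TAP2 was called lower in knockdown 2 and TAP1 was not called. TAP1 had 12.6, 12.8 and 12.8 FPKM in control, 12.4, 12.1 and 11.6 FPKM in knockdown 1 and 11.5, 10.7 and 12.5 FPKM in knockdown 2, with log2 fold changes of -0.08 ± 0.052 (adjusted P = 0.21) and -0.13 ± 0.052 (adjusted P = 0.0445), which turned to 0.01 and 0.03 after the GC correction. The lowest control library (12.56 FPKM) was barely above the highest of knockdown 2 (12.51 FPKM), and the 95% interval in knockdown 1 ran from -0.2 to 0.04. TAP2 had 8.59, 9.04 and 9.37 FPKM in control, 6.73, 6.73 and 6.91 FPKM in knockdown 1 and 5.42, 5.86 and 5.88 FPKM in knockdown 2. The 3 groups of TAP2 libraries did not overlap, with the lowest values in knockdown 2. Its log2 fold change was -0.36 ± 0.045 in knockdown 1 (adjusted P = 7.45e-05), short of the fold limit, and -0.57 ± 0.045 in knockdown 2 (adjusted P = 2.26e-06), past it. The lack of a call in knockdown 1 was narrow, since the mean FPKM in control was 1.325 times that in knockdown 1. TAP2 gained the call there in 5 of 13 other settings and in 1 of 9 runs with a library left out. The ratio of TAP1 to TAP2 was 1.42 ± 0.0476 in control, 1.77 ± 0.0878 in knockdown 1 and 2.03 ± 0.17 in knockdown 2. With the 3 predicted genes annotated as TAP2 added, the sum was 13.3 ± 0.399, 9.79 ± 0.175 and 7.82 ± 0.17 FPKM, and the log2 fold change in knockdown 1 was then past the limit at -0.41.

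TAPBP, which encodes tapasin, had 3.81, 4.3 and 3.15 FPKM in control, 2.25, 1.61 and 2.3 FPKM in knockdown 1 and 1.62, 1.86 and 0.72 FPKM in knockdown 2. All knockdown libraries were below all control libraries, but the libraries of each group were spread widely and knockdown 2 r2 stood lowest. TAPBP was called lower in both comparisons, with log2 fold changes of -0.64 ± 0.18 (adjusted P = 0.0105) and -1.01 ± 0.18 (adjusted P = 0.000593). The table held 1 predicted gene annotated as tapasin, BGI_novel_G002521, at 3.39 ± 0.252 FPKM in control, 3.61 FPKM in knockdown 1 and 2.73 FPKM in knockdown 2. With it added, TAPBP was no longer called in knockdown 1 (log2 fold change -0.29, adjusted P = 0.048) and was still called in knockdown 2 (-0.68).

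NLRC5, the transactivator of class I genes, was higher after knockdown. It had 0.59, 0.51 and 0.57 FPKM in control, 1.79, 1.83 and 1.81 FPKM in knockdown 1 and 1.6, 1.41 and 1.7 FPKM in knockdown 2. The control libraries lay far below the 6 knockdown libraries, in about 88 to 111 fragments against 237 to 310. The log2 fold changes were 0.85 ± 0.064 (adjusted P = 2.5e-06) and 0.72 ± 0.064 (adjusted P = 5.08e-06), and the mean FPKM in the knockdown groups was 3.25 and 2.82 times that in control. With a control mean below 1 FPKM, NLRC5 passed the expression filter only through its level in the knockdown groups. Without any expression filter it was called as well, with log2 fold changes of 0.85 (limma, adjusted P = 6.95e-06) and 0.72 (adjusted P = 9.61e-06). That fit uses the same values of NLRC5, so its fold changes could not differ and the call adds no support.

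**Figure D3:**
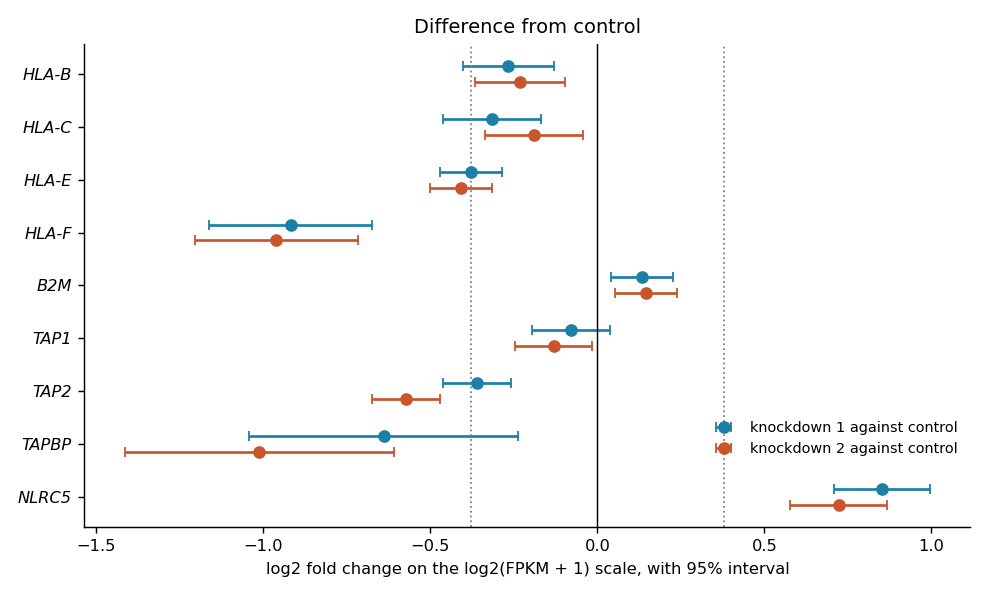
Log2 fold change of each gene against control, on the log2(FPKM + 1) scale, with the 95% interval of the limma fit as the bar; dotted lines mark the fold limit of 1.3 in either direction. HLA-F, TAPBP and TAP2 in knockdown 2 lie well below the lower limit, HLA-E lies at it, and NLRC5 lies above the upper limit with 0.85 and 0.72.

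Of the 9 genes, 1 was called higher and 3 lower in knockdown 1 (HLA-E, HLA-F and TAPBP). Over all tested genes, 11.1% were called higher and 15.6% lower in that comparison, against 11.1% and 33.3% of the 9 genes. In knockdown 2, 1 gene was called higher and 4 lower (HLA-E, HLA-F, TAP2 and TAPBP), which is 11.1% and 44.4% of the 9 genes, against 11.0% and 23.1% of all tested genes. The share called higher is NLRC5 alone, which passed the expression filter through the groups where it is high, so nothing is read from it, and the share called lower rests on 3 and 4 genes. The median log2 fold change of the 9 genes was -0.32 and -0.23, beside 0 (0.00316) and -0.1 (-0.0954) for all tested genes. The 3 knockdown libraries lay all above or all below the 3 control libraries for all 9 genes in each comparison, and this was so for 70.0% of all tested genes in knockdown 1 and 73.0% in knockdown 2.

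Between the knockdown groups, none of the 9 genes was called by limma, and 1 (TAP2) had an unadjusted P of at most 0.05. Over all tested genes, 2.19% were called higher and 5.45% lower in knockdown 2 than in knockdown 1. TAP2 differed by -0.21 ± 0.045 on the log2 scale (adjusted P = 0.00445). For the other 8 genes the 95% intervals of the difference were -0.78 to 0.03 for TAPBP, -0.29 to 0.2 for HLA-F, -0.27 to 0.01 for NLRC5 and -0.02 to 0.27 for HLA-C, and lay within -0.17 and 0.17 for HLA-B, HLA-E, B2M and TAP1.

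The GC content of the transcripts moved with the fold changes. Among 11380 tested genes with a sequence in GENCODE release 29, the 2276 with at least 58.6% GC had a median log2 fold change of -0.295 in knockdown 1 and -0.345 in knockdown 2. The GC content was 62.7% for HLA-C, 59% for HLA-B, between 54.8% and 58% for HLA-E, HLA-F, TAP1, TAPBP and NLRC5, 49.1% for TAP2 and 40.6% for B2M. After each library was corrected for GC content, HLA-C was at -0.01 in knockdown 1 (limma, adjusted P = 0.808) and turned to 0.16 in knockdown 2 (adjusted P = 0.000336). HLA-B was then at -0.12 (adjusted P = 0.0345) and -0.02 (adjusted P = 0.727), and TAP1 at 0.01 and 0.03. HLA-E was at -0.33 and -0.29, short of the fold limit. HLA-F (-0.83 and -0.8), TAP2 (-0.4 and -0.54), TAPBP (-0.55 and -0.85) and NLRC5 (0.96 and 0.89) were called in both comparisons after the correction. B2M was at 0.06 (adjusted P = 0.135) and 0.2 (adjusted P = 0.000135).

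Scaling each library by its median ratio moved the median of all genes in knockdown 2 from -0.0954 to -0.00414 and left knockdown 1 nearly as it was. Of the genes called in knockdown 2, 67.8% were lower with FPKM as deposited, 53.2% after this scaling and 49.8% after the GC correction. After the scaling, HLA-B was at -0.13 (adjusted P = 0.0891), HLA-C at -0.08 (adjusted P = 0.303) and HLA-E at -0.3 in knockdown 2, and none of them was called there, whereas HLA-F (-0.88), TAP2 (-0.48) and TAPBP (-0.94) were.

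**Figure D4:**
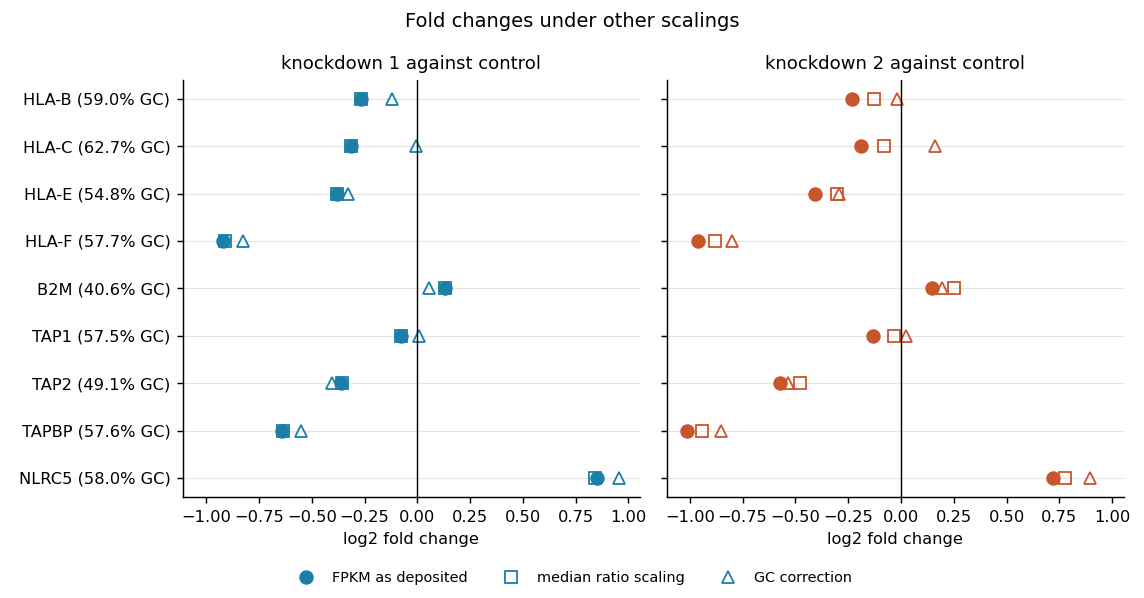
Log2 fold change of each gene against control with FPKM as deposited (filled circles), after median ratio scaling (open squares) and after GC correction (open triangles), with the GC content of the transcript beside the name. HLA-F, TAP2, TAPBP and NLRC5 keep their side of 0 and are called after the GC correction, while HLA-C moves from -0.32 to -0.01 in knockdown 1 and from -0.19 to 0.16 in knockdown 2.

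To set these values beside the elements that the promoters hold, the RefSeq promoter windows of GRCh38.p14, from 250 bases before to 50 bases after the start, were searched. Entries were found for 7 of the 9 genes, and HLA-E and NLRC5 had none in the table used. The parts from -200 to -31, counted from the start, are shown for 3 heavy chains, for B2M, which was higher, and for TAP2, which had the lower level of the transporter pair. Capitals mark matches on either strand to the CCAAT box (CCAAT or ATTGG), to the CRE half-site (TGACG or CGTCA), to the interferon-response core in its 2 spacings (GAAANNGAA or GAANNGAAA, or their reverse) and to a kappa B core (GGGGATTCC or its reverse).
HLA-B: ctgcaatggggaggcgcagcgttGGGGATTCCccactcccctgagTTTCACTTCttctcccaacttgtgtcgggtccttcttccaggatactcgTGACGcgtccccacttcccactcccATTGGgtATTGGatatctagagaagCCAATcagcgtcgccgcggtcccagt
HLA-C: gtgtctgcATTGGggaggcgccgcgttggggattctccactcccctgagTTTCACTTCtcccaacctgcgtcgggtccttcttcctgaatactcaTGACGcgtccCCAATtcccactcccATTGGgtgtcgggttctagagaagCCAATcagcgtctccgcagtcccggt
HLA-F: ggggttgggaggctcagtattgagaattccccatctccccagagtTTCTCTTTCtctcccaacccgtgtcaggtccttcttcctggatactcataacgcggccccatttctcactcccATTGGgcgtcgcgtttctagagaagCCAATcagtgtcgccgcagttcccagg
B2M: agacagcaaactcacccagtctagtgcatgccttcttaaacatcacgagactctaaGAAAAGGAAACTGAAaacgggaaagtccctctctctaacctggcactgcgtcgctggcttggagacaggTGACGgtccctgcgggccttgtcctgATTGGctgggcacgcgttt
TAP2: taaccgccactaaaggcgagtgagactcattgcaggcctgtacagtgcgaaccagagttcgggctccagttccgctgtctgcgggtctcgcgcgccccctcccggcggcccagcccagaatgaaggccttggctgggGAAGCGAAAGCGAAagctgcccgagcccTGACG
The windows shown lie at chr6:31357210-31357379 on the reverse strand for HLA-B, chr6:31272123-31272292 on the reverse strand for HLA-C, chr6:29723234-29723403 on the forward strand for HLA-F, chr15:44711317-44711486 on the forward strand for B2M and chr6:32838770-32838939 on the reverse strand for TAP2.

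HLA-B, HLA-C and HLA-F all held CCAAT boxes on both strands upstream of the start, with ATTGG at -81 and -74 in HLA-B, -192 and -80 in HLA-C and -82 in HLA-F, and CCAAT at -56, -56 and -57 (HLA-C had another CCAAT at -95). HLA-B and HLA-C also held TGACG, at -106 and -105, and HLA-F held no match to TGACG or CGTCA in its window. The GGGGATTCC core was found in HLA-B alone of the 7 genes. Interferon-response cores were matched on the reverse strand in these heavy chains too, as TTTCACTTC at -155 in HLA-B and -151 in HLA-C and TTCTCTTTC at -155 in HLA-F. B2M held overlapping interferon-response cores, TGACG and ATTGG in that order, and TAP2 held overlapping interferon-response cores and TGACG. Among 35116 promoter windows of the same length, 34.6% held CCAAT or its reverse, 24.6% TGACG, 8.11% GAAANNGAA, 7.66% GAANNGAAA and 0.285% GGGGATTCC. The window of TAPBP held overlapping matches to GAAANNGAA from -20 and -14, and 1 of the 2 TAP1 windows held overlapping matches from -133 and -127. A match describes letters in a window only.

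The factors of these elements were measured too. Of 15 transcription factors and cofactors of class I promoters, 14 were tested, and 1 was called higher and 2 lower in knockdown 1 and 0 higher and 4 lower in knockdown 2, with medians of -0.06 and -0.11. After median ratio scaling, 1 was called higher and 2 lower in knockdown 2 (median -0.01), and after the GC correction 0 were higher and 1 lower in knockdown 1 and 0 higher and 2 lower in knockdown 2 (medians -0.12 and -0.06). Over all tested genes, 11.1% were called higher and 15.6% lower in knockdown 1 and 11.0% and 23.1% in knockdown 2. In knockdown 2 these shares were 15.3% and 17.4% after median ratio scaling and 15.0% and 14.9% after the GC correction. In knockdown 1 they were 10.9% and 11.6% after the GC correction. The counts of this list and of those below were not tested against such shares and are a description. RFX5 and RFXANK, subunits of the RFX complex with which NLRC5 acts, were called lower in both comparisons. RFX5 had 12.8 ± 0.341 FPKM in control, 8.44 ± 0.595 FPKM in knockdown 1 and 7.02 ± 0.324 FPKM in knockdown 2, with log2 fold changes of -0.55 and -0.79. RFXANK had 23.9 ± 1.92, 15.8 ± 0.562 and 15.7 ± 0.96 FPKM, with log2 fold changes of -0.57 (limma, adjusted P = 2.37e-05) and -0.58 (adjusted P = 1.55e-05). After the GC correction RFX5 was still called lower (-0.6 and -0.75), whereas RFXANK was short of the fold limit (-0.34 and -0.3). The third subunit, RFXAP, was not called. IRF1, which carries the interferon-gamma signal to class I promoters, was at 11.9 FPKM in control and was not called, with log2 fold changes of 0.07 and 0.02. CIITA, the class II counterpart of NLRC5, was at up to 0.02 FPKM on average in each group.

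Of 20 genes for peptide supply and loading, 19 were tested, of which 2 were called higher and 4 lower in knockdown 1 and 2 higher and 3 lower in knockdown 2, with medians of -0.01 and -0.08, which turned to 0.02 and 0.04 after the GC correction. All tested genes gave 11.1% higher and 15.6% lower in knockdown 1 and 11.0% and 23.1% in knockdown 2. PSMB9, a subunit of the immunoproteasome whose gene lies head to head with TAP1, had 6.19 ± 0.471 FPKM in control, 4.36 ± 0.265 FPKM in knockdown 1 and 3.98 ± 0.408 FPKM in knockdown 2 (log2 fold changes -0.42 and -0.53). PSME1, a subunit of the proteasome activator PA28, had 121 ± 3.65, 90.9 ± 1.1 and 88.9 ± 2.55 FPKM (-0.4 and -0.44). TAPBPL, a tapasin-related peptide editor, had 4.4 ± 0.16, 2.58 ± 0.251 and 2.69 ± 0.159 FPKM (-0.6 and -0.55). The list also holds general chaperones of the endoplasmic reticulum, and HSPA5, the chaperone BiP, was higher at 164 ± 1.18, 273 ± 8.7 and 480 ± 6.82 FPKM (0.73 and 1.54). PSME1 was short of the fold limit in knockdown 2 after median ratio scaling (-0.33) and after the GC correction (-0.36), and PSMB9, TAPBPL and HSPA5 were called under both. After median ratio scaling, 5 genes of the list were called higher and 2 lower in knockdown 2, beside 15.3% and 17.4% of all tested genes. The constitutive proteasome subunits PSMB5, PSMB6 and PSMB7 were not called in either comparison with FPKM as deposited, and PSMB6 was called higher in knockdown 2 under both other scalings. Of the other immunoproteasome subunits, PSMB8 was not called either (-0.14 and -0.27), and PSMB10 was called lower in knockdown 1 only (-0.44 and -0.22). PSME2, another PA28 subunit, was not called (-0.1 and -0.2). Of the chaperones, CALR was called higher in knockdown 2 only (0.22 and 0.66), and PDIA3 was not called (0.35 and 0.28).

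Molecules with a class I-like fold serve mostly outside peptide presentation. Of 15 such genes, 11 were tested, with 5 called higher and 2 lower in each comparison and medians of 0.16 and 0.15. The shares of all tested genes called higher and lower were 11.1% and 15.6% in knockdown 1 and 11.0% and 23.1% in knockdown 2. ULBP2, a stress-induced ligand of the NKG2D receptor of natural killer cells, had 13.5 ± 0.485 FPKM in control, 23.1 ± 1.36 FPKM in knockdown 1 and 28.3 ± 1.92 FPKM in knockdown 2 (log2 fold changes 0.74 and 1.02). RAET1L, of the same ligand family, had 16 ± 0.396, 29.7 ± 0.809 and 32.1 ± 0.536 FPKM (0.86 and 0.97), and MICB, another NKG2D ligand, had 4.37 ± 0.206, 7.11 ± 0.285 and 7.62 ± 0.148 FPKM (0.6 and 0.68). ULBP1, a ligand of the same receptor, was lower at 7.46 ± 0.21, 3.25 ± 0.188 and 2.46 ± 0.41 FPKM (-0.99 and -1.3). Members of the ULBP and RAET1 family are close in sequence, so the split of fragments among them is uncertain. The 4 genes named here were called in the same direction after median ratio scaling and after the GC correction. HLA-G was at about 0.02 FPKM in each group.

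Of 15 genes of interferon signalling, 14 were tested, and 1 was called higher and 3 lower in knockdown 1 and 1 higher and 5 lower in knockdown 2, with medians of 0.01 (-0.04 after the GC correction) and -0.11. In knockdown 2, the counts were 2 higher and 3 lower after median ratio scaling (median -0.01) and 2 higher and 2 lower after the GC correction (median -0.04). With FPKM as deposited, 11.1% of all tested genes were higher and 15.6% lower in knockdown 1, and 11.0% and 23.1% in knockdown 2. The shares in knockdown 2 were 15.3% and 17.4% after median ratio scaling and 15.0% and 14.9% after the GC correction. IRF9, the DNA-binding subunit of the interferon-alpha response complex, had 4.77 ± 0.299, 3.4 ± 0.445 and 2.53 ± 0.48 FPKM (log2 fold changes -0.4 and -0.72), and PTPN2, a phosphatase that turns off JAK and STAT signals, had 25.5 ± 1.13, 18.2 ± 0.195 and 19.1 ± 0.648 FPKM (-0.46 and -0.4). The 1 gene counted as higher in each comparison was SOCS1, an inhibitor of JAK kinases, at 0.567 ± 0.15, 1.07 ± 0.21 and 1.43 ± 0.267 FPKM (0.4 and 0.63). It passed the expression filter only through the knockdown groups, where it is high, so its call supports nothing. After the GC correction IRF9 was short of the fold limit in knockdown 1 (-0.34) and PTPN2 in knockdown 2 (-0.35, and -0.3 after median ratio scaling).

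Of 28 interferon-stimulated genes, 16 were tested, with 2 higher and 5 lower in knockdown 1 and 2 higher and 7 lower in knockdown 2 (medians -0.07 and -0.28). All tested genes gave 11.1% higher and 15.6% lower in knockdown 1 and 11.0% and 23.1% in knockdown 2. IFI35 had 4.58 ± 0.327, 1.59 ± 0.292 and 1.25 ± 0.115 FPKM (-1.11 and -1.31), BST2, the virus-tethering protein tetherin, had 3.5 ± 0.45, 2.25 ± 0.393 and 1.82 ± 0.207 FPKM (-0.47 and -0.67), and OASL went the other way with 2.72 ± 0.263, 4.51 ± 0.382 and 4.74 ± 0.163 FPKM (0.57 and 0.63). These 3 genes were called in the same direction under both other scalings, but over the list the counts in knockdown 2 were 3 higher and 4 lower in each of them. All tested genes gave 15.3% and 17.4% there after median ratio scaling and 15.0% and 14.9% after the GC correction.

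MHC class II genes and the neighbours of the class I genes served as a frame. Of 12 class II genes, 3 were tested and 0 were called by limma in either comparison, where HLA-DQB1 had an unadjusted P of at most 0.05 in both (-0.32 and -0.23) and was called lower in knockdown 1 after the GC correction (-0.41). CD74, the invariant chain, was at 0.307 FPKM in control, 0.143 FPKM in knockdown 1 and 0.0733 FPKM in knockdown 2. Of 28 genes that lie in or near the MHC and do not serve antigen presentation, 26 were tested, with 3 higher and 6 lower in knockdown 1 and 2 higher and 8 lower in knockdown 2 and medians of -0.16 in each, and 5 higher and 6 lower in knockdown 2 under either other scaling. The shares of all tested genes were 11.1% higher and 15.6% lower in knockdown 1 and 11.0% and 23.1% in knockdown 2. In knockdown 2 they were 15.3% and 17.4% after median ratio scaling and 15.0% and 14.9% after the GC correction. RING1, a Polycomb ubiquitin ligase located near TAPBP, had 14.6 ± 0.608, 6.04 ± 0.821 and 5.9 ± 0.664 FPKM (log2 fold changes -1.15 and -1.18), and PPP1R10, a regulatory subunit of protein phosphatase 1, had 15.3 ± 0.743, 11.2 ± 0.74 and 5.88 ± 0.357 FPKM (-0.42 and -1.25). The heat-shock gene HSPA1B, with 24.5 ± 0.576, 91 ± 18.3 and 591 ± 43.9 FPKM (1.83 and 4.54), and its near-identical copy HSPA1A, with 8.54 ± 0.994, 32.9 ± 3.25 and 176 ± 4.71 FPKM (1.83 and 4.22), were the largest among these neighbours, and the split between the copies is uncertain.

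**Figure D5:**
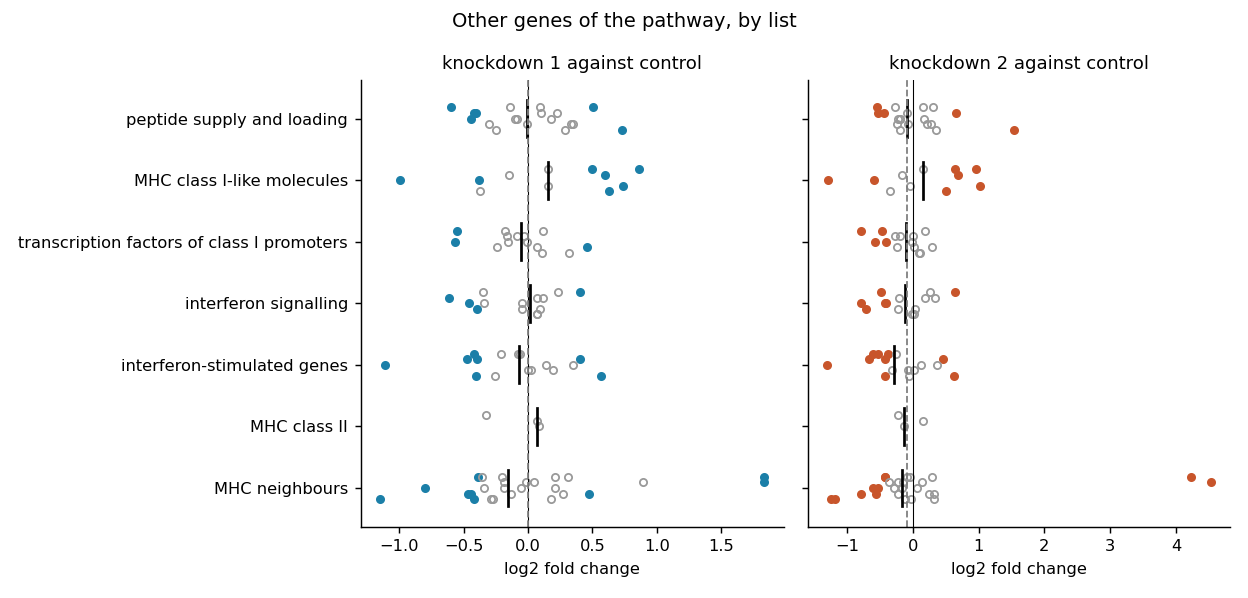
Log2 fold change against control of the tested genes of the 7 lists of class I, interferon, class II and neighbouring genes, 1 point per gene. Filled points were called, open points were not, the black bar is the median of the list and the dashed line is the median of all tested genes; the medians of these 7 lists lie between -0.16 and 0.16 in knockdown 1 and between -0.28 and 0.15 in knockdown 2, and the class I-like molecules have most of their called genes on the right.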

How the data were processed

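RNA-seq was run on the BGISEQ-500 platform in 9 libraries. The authors deposited FPKM per gene and library, rounded to 2 decimals, with log2 ratios between groups and P and q values for them, which were not used. The submitters' notes name Bowtie2 (version 2) and GRCh37.p13, and the counting tool and its use of strand are not given in the sources used here. Titles gave the groups. The members and gene lists were chosen with earlier results of these data known. The level of LINC00673 was not analysed here, and some genes of the lists are not reported by name.

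FPKM + 1 were log2-transformed, and genes averaging 1 FPKM or more were fitted with limma version 3.58.1 (R version 4.3.3, lmFit, eBayes with a trend), with condition as the only factor and 9 libraries in 1 fit. Named genes were the 9 members and, from each list, at most 4 genes called in both knockdown comparisons in the same direction, by mean absolute log2 fold change. Other genes named (predicted genes, list genes not called in both comparisons and markers) were chosen after their values were seen. For the GC correction, the median deviation from the gene mean was removed in 20 bins of GC content of the longest GENCODE release 29 transcript.

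Depth was estimated over 123 to 146 known genes per library with 1 transcript of 300 to 900 bases and up to 0.4 FPKM, as the depth and length reduction at which their values came closest to whole fragments. The mean distance from whole fragments was 0.058 to 0.0783, and fragment numbers per gene are estimates from these. The fit and the depth step were tested on simulated data. Alternatives were another added value, other filters and limits, other scalings, a GC correction, the replicate label as a block, only the groups compared, no trend and each library left out. Adding predicted genes to TAP2 and TAPBP and the second spacing of the interferon-response core were chosen after seeing the data. Tables and figures were made in Python version 3.11.15 (pandas 2.3.3, matplotlib 3.10.9, numpy 2.4.6).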

Additional observations from a re-analysis of the deposited data

Results flagged for a closer look

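With FPKM as deposited, TAP2 alone of the 9 genes differed between the knockdown groups at an adjusted P of at most 0.05. Its log2 fold change in knockdown 2 against knockdown 1 was -0.2138 (limma, adjusted P = 0.00445), the 3 libraries of knockdown 2 (5.42 to 5.88 FPKM) were below the 3 of knockdown 1 (6.73 to 6.91 FPKM), and the difference was short of the fold limit. It was -0.13 after the GC correction (adjusted P = 0.0283) and -0.12 after median ratio scaling (adjusted P = 0.0504). Under these scalings other genes differed as well, with HLA-C at 0.17 (adjusted P = 0.000666) and 0.23 (adjusted P = 0.0239) and B2M at 0.14 (adjusted P = 0.00366) and 0.12 (adjusted P = 0.0471) in the same order.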

How the results depend on the processing

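The 9 genes gave 1 called higher and 3 lower in knockdown 1 and 1 higher and 4 lower in knockdown 2. With an adjusted P of at most 0.05 and no fold limit, 2 were higher and 6 lower in knockdown 1, 2 higher and 7 lower in knockdown 2, and 1 lower in knockdown 2 than in knockdown 1. The shares of all tested genes at this and the following settings were not counted, so nothing is read from these counts. For 70.0% and 73.0% of all tested genes, the libraries of knockdown 1 and knockdown 2 did not overlap those of control. With a fold limit of 2, 0 were higher and 0 lower in knockdown 1, and 0 higher and 1 lower in knockdown 2. With a minimum mean of 5 FPKM, 0 were higher and 1 lower in knockdown 1, and 0 higher and 2 lower in knockdown 2, since HLA-F, TAPBP and NLRC5 are then not tested. With the predicted rows added to TAP2 and TAPBP, 1 (TAPBP, log2 fold change -0.39) was lower in knockdown 2 than in knockdown 1. When each library was left out in turn, between 0 and 1 were lower in that comparison, 2 to 3 were lower in knockdown 1 against control and 3 to 4 in knockdown 2, with 1 higher in each. The GC correction reversed HLA-C (0.16) and TAP1 (0.0254) in knockdown 2 against control, also when joined to the replicate block (0.16 and 0.0254). Among the other fold changes of single genes, 13 gained and 17 lost a call against control, and 4 gained one between the knockdown groups. Of the 356 that kept their side of the limits against control, 2 changed sign (TAP1 in knockdown 1 with the GC correction, 0.01, with and without the block), as did 15 of 191 between the knockdown groups.

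The replicate labels repeat in each group, but same-labelled libraries did not deviate together (r of 0.104, -0.0539 and 0.00347 in knockdown 1 and -0.239, -0.0832 and 0.0271 in knockdown 2), so they were not treated as pairs. With the replicate block, 1 gene was called higher and 3 lower in knockdown 1 and 1 higher and 4 lower in knockdown 2, as without it. Summing rows of a gene was not run, because each gene had 1 row. Depth limits HLA-F, TAPBP and NLRC5 most, with about 68, 107 and 88 fragments in their lowest libraries. With 3 libraries per group, no exact test of a single value can reach a P below 0.1.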
